A study of Mus musculus with 32 samples.

Results

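Target genes of the transcription factor p53, 8 in all, were followed in livers of mice on 2 diets: Cdkn1a, Mdm2, Ccng1, Btg2, Phlda3, Eda2r, Trp53inp1 and Bax. They were picked by symbol, and all 8 were among the 41585 gene entries of the deposited count tables. The livers came from female and male C57Bl/6J wild-type (WT) mice and from mice on that background in which Cyp2b9, Cyp2b10 and Cyp2b13 had been deleted by CRISPR/Cas9 (Cyp2b-null). Mice were 10 weeks old at the start and then ate normal chow (ND) or a diet rich in fat, without choline and with amino acids in place of protein (CDAHFD). The feeding lasted 8 weeks, and sex, genotype and diet together give 8 groups of 4 libraries, each from 1 mouse. The 32 libraries held 2906411 to 10166959 counts. The question was how far each gene moved with diet, with genotype and with sex.

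The protein p53, encoded by Trp53 in the mouse, is held at a low level by the ubiquitin ligase Mdm2 and accumulates when DNA is damaged or cells are stressed. It then binds DNA and raises transcription of genes that halt the cell cycle, repair DNA, change metabolism or start apoptosis, and of Mdm2 itself, which closes a feedback loop. In the liver this response is known from hepatocyte injury, steatosis and regeneration.

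The deleted genes were read first, as a check of the labels. In females on ND, Cyp2b13 had 878 to 2351 counts per WT library and 0 in each Cyp2b-null library, and Cyp2b9 had 1371 to 3530 counts against 4 to 8. Cyp2b10 separated the genotypes in females on either diet and in males on ND, where it had 33 to 97 counts in WT livers against 1 to 9. In males on CDAHFD its counts overlapped, at 0 to 7 for WT libraries against 0 to 6, and Cyp2b9 separated the genotypes there at 118 to 364 against 2 to 7. In males on ND, Cyp2b9 overlapped at 0 to 15 counts for WT libraries against 4 to 18. Cyp2b13 had at most 6 counts in any male library. These genes are close relatives, so reads could be shared between them. Hepatocyte markers, among them Alb, were detected in all 32 libraries, as the liver label requires.

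Most of the p53 target genes were higher on CDAHFD than on ND in each combination of sex and genotype. With edgeR's quasi-likelihood test at an adjusted p under 0.05, 7 of the 8 genes rose on CDAHFD in WT females, where 13.9% of all 13226 genes tested rose. In Cyp2b-null females 6 of 8 rose, against 16.9% of all genes. In WT males 6 of 8 rose, against 18% of the 13460 genes tested, and in Cyp2b-null males 6 of 8, against 20.3%. None of the 8 fell in these 4 comparisons, by DESeq2 or at an unadjusted p under 0.05 either, in which 10.2%, 13.9%, 15% and 17.1% of all genes fell. Without the filter on low counts, Trp53inp1 was called lower in Cyp2b-null females, at -0.53 (edgeR adjusted p = 0.0110). Cdkn1a, Btg2, Phlda3, Eda2r, Ccng1 and Bax were called in all 4, Mdm2 in WT females, and Trp53inp1 in none. The share of all genes called in all 4 is not given here, so this only lists the genes. All 8 genes passed the filter on low counts in both tables, but Phlda3, Eda2r and Cdkn1a passed through the CDAHFD libraries. Phlda3 and Eda2r had at most 14 and 13 counts in any ND library, and Cdkn1a 0 to 18 counts in 15 of the 16 and 44 in the other. A gene with few counts on ND enters the tests only through its CDAHFD libraries, so the counts of genes that rose and the medians below describe these genes and carry no test of the list. The median log2 diet change over the 8 genes was 1.22, 1.13, 1.13 and 1.24 in WT females, Cyp2b-null females, WT males and Cyp2b-null males, beside medians of 0.00, 0.03, -0.02 and -0.01 over all genes tested.

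Single libraries of the diets were also set side by side. All 4 CDAHFD libraries lay above all 4 ND libraries for 5 of the 8 genes in WT females (14.4% of all genes), 5 in Cyp2b-null females (15.7%), 5 in WT males (15.6%) and 6 in Cyp2b-null males (19.5%). Among these were Phlda3 and Eda2r in each comparison, and Cdkn1a in all but WT females. These genes passed the filter through their CDAHFD libraries, so the counts of separated genes also describe them and carry no test of the list. Liver pieces are mixtures of cells, and in bulk RNA fewer cells of a type and less RNA per cell cannot be told apart.

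**Figure D1:**
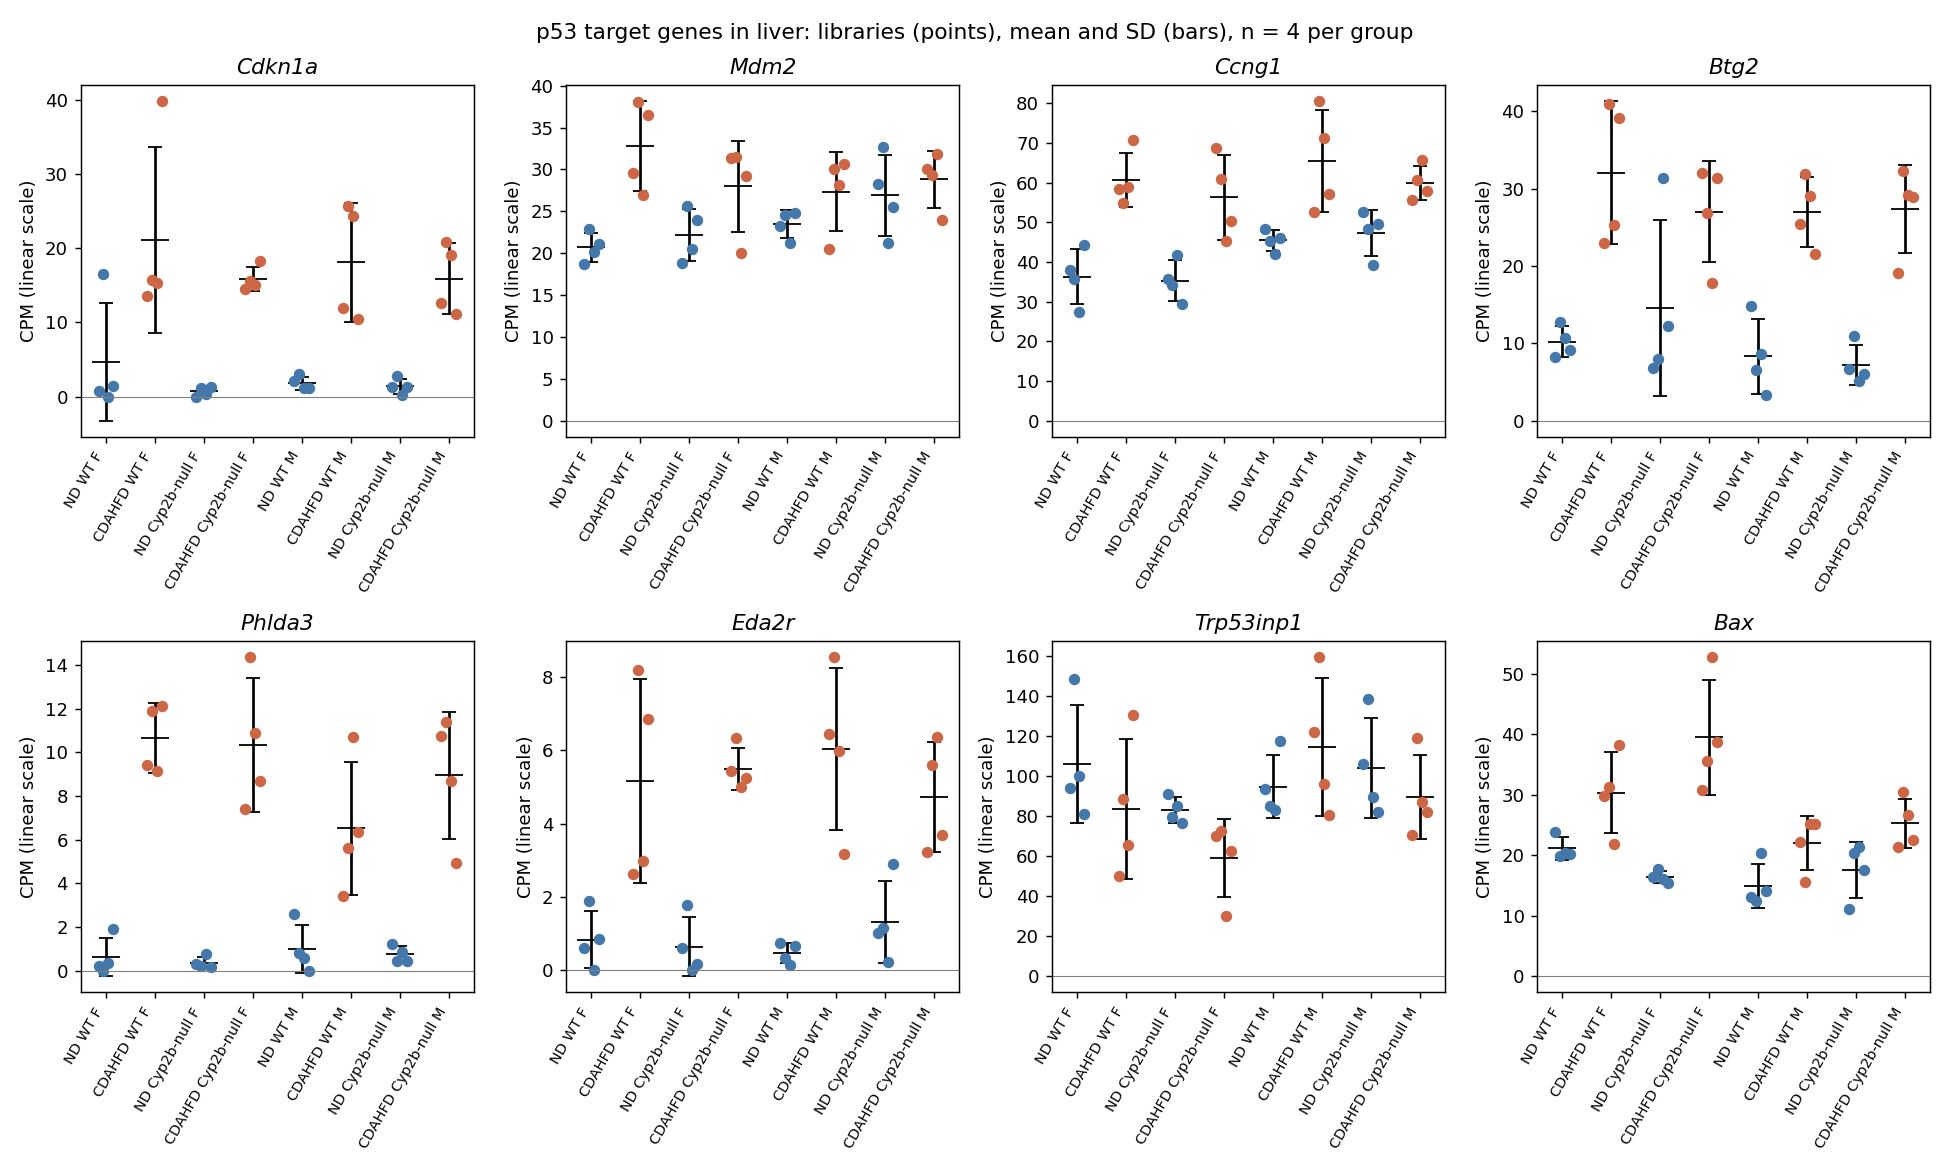
CPM of each of the 8 p53 target genes in the 8 groups, on linear axes; points are libraries (blue ND, orange CDAHFD) and black bars give the mean and SD of 4 libraries. All 16 CDAHFD libraries lie above all 16 ND libraries for Phlda3 (4.38% of all genes), while 1 ND-fed WT female library reaches 16.5 CPM of Cdkn1a and Trp53inp1 shows no such separation.

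Cdkn1a (chr17:29090979-29100722, GRCm38.p6) encodes p21, an inhibitor of cyclin-dependent kinases that stops cells before DNA replication. Its levels are given as CPM, read counts scaled to a common library size. In WT females, the 4 libraries on ND had 0.797, 16.5, 0 and 1.37 CPM of Cdkn1a and the 4 on CDAHFD had 13.6, 15.7, 15.3 and 39.8 CPM. The ND library of replicate 2 stood at 16.5 CPM and reached into the CDAHFD range, so the groups overlapped through it alone. The Cyp2b-null females had 0, 1.19, 0.373 and 1.34 CPM of Cdkn1a on ND, against 14.5, 15.5, 14.99 and 18.2 CPM on CDAHFD. In WT males, the 4 libraries on ND had 2.03, 2.97, 1.12 and 1.09 CPM of Cdkn1a and the 4 on CDAHFD had 12.0, 25.7, 24.3 and 10.4 CPM. The Cyp2b-null males had 1.24, 2.74, 0.212 and 1.33 CPM of Cdkn1a on ND, against 12.5, 20.8, 19.0 and 11.1 CPM on CDAHFD. In these 3 pairs of groups every CDAHFD library was above every ND library. The log2 change was 2.50 ± 0.63 in WT females, 4.18 ± 0.80 in Cyp2b-null females, 3.32 ± 0.41 in WT males and 3.57 ± 0.43 in Cyp2b-null males (SE), with edgeR adjusted p-values of 0.00586, 0.000484, 2.16e-06 and 1.35e-06. Without replicate 2 of the ND-fed WT females the change in WT females was 4.64 (edgeR adjusted p = 3.75e-06; all settings tried spanned 4.91e-19 to 0.0386). DESeq2 gave Cdkn1a no adjusted p in females.

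Btg2 (chr1:134074865-134079155) belongs to a family of antiproliferative proteins that recruit the enzymes shortening poly(A) tails of mRNA. Libraries of WT females had 8.17, 12.8, 10.7 and 9.10 CPM of Btg2 on ND and 23.0, 40.9, 25.3 and 39.2 CPM on CDAHFD. For Cyp2b-null females the Btg2 levels were 6.85, 7.93, 31.4 and 12.2 CPM on ND against 32.1, 26.9, 17.8 and 31.4 CPM on CDAHFD. Replicate 3 of the ND-fed Cyp2b-null females, at 31.4 CPM, lay among the CDAHFD libraries, and the other ND libraries of that group lay below all of them. Libraries of WT males had 14.8, 6.60, 8.55 and 3.27 CPM of Btg2 on ND and 25.4, 31.9, 29.0 and 21.5 CPM on CDAHFD. For Cyp2b-null males the Btg2 levels were 6.65, 11.0, 5.08 and 5.99 CPM on ND against 19.1, 32.3, 29.2 and 28.9 CPM on CDAHFD. In WT females and in both male genotypes the diets did not overlap. On the log2 scale Btg2 changed by 1.70 ± 0.35 in WT females, 0.97 ± 0.34 in Cyp2b-null females, 1.69 ± 0.29 in WT males and 1.95 ± 0.29 in Cyp2b-null males (SE), with edgeR adjusted p-values of 0.00113, 0.0349, 0.000100 and 2.02e-05. In Cyp2b-null females the call was lost when replicate 1, 2 or 4 of either diet was left out, at changes of 0.75 to 0.97, and in a fit of those groups alone, while without replicate 3 on ND the change was 1.58 (edgeR adjusted p = 0.000280; all settings tried spanned 5.72e-05 to 0.131).

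Ccng1 (chr11:40748552-40755309) encodes cyclin G1, which works with a protein phosphatase on Mdm2. In WT females, the 4 libraries on ND had 38.0, 35.6, 27.3 and 44.3 CPM of Ccng1 and the 4 on CDAHFD had 58.4, 54.9, 59.0 and 70.6 CPM. The Cyp2b-null females had 35.7, 34.1, 41.8 and 29.3 CPM of Ccng1 on ND, against 68.8, 60.9, 45.1 and 50.2 CPM on CDAHFD. In WT males, the 4 libraries on ND had 48.4, 45.2, 42.1 and 46.0 CPM of Ccng1 and the 4 on CDAHFD had 52.6, 80.6, 71.2 and 57.2 CPM. The CDAHFD libraries were above the ND libraries in these 3 pairs. The Cyp2b-null males had 52.6, 48.2, 39.1 and 49.5 CPM of Ccng1 on ND, against 55.6, 60.6, 65.6 and 57.8 CPM on CDAHFD. There too the groups did not overlap. The log2 change was 0.75 ± 0.17 in WT females, 0.70 ± 0.17 in Cyp2b-null females, 0.53 ± 0.13 in WT males and 0.34 ± 0.13 in Cyp2b-null males (SE; edgeR adjusted p-values 0.00215, 0.00331, 0.00343 and 0.0449). The call in Cyp2b-null males was lost when replicate 2, 3 or 4 of either diet was left out, at changes of 0.26 to 0.36, and without the filter on low counts, at 0.34. With the replicate number as a block it was also lost, at 0.34 (edgeR adjusted p = 0.0608), though the labels do not say whether these numbers pair the samples.

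Mdm2 (chr10:117688875-117710758), the ligase that marks p53 for degradation, rose in 1 of the 4 comparisons. Libraries of WT females had 18.7, 22.9, 20.1 and 21.1 CPM of Mdm2 on ND and 29.5, 38.1, 26.9 and 36.5 CPM on CDAHFD. For Cyp2b-null females the Mdm2 levels were 18.8, 25.6, 20.5 and 23.9 CPM on ND against 31.3, 31.5, 19.98 and 29.2 CPM on CDAHFD. In females, WT libraries did not overlap between diets and Cyp2b-null libraries did, through replicate 3 on CDAHFD. Libraries of WT males had 23.3, 24.6, 21.2 and 24.8 CPM of Mdm2 on ND and 20.5, 30.1, 28.1 and 30.7 CPM on CDAHFD. For Cyp2b-null males the Mdm2 levels were 28.3, 32.6, 21.2 and 25.5 CPM on ND against 30.1, 29.3, 31.9 and 24.0 CPM on CDAHFD. In males the diets overlapped in both genotypes. On the log2 scale Mdm2 changed by 0.68 ± 0.17 in WT females, 0.34 ± 0.17 in Cyp2b-null females, 0.23 ± 0.15 in WT males and 0.11 ± 0.15 in Cyp2b-null males (SE; edgeR adjusted p-values 0.00571, 0.137, 0.262 and 0.608), and only that of WT females was called. Without replicate 3 of the CDAHFD-fed Cyp2b-null females the change there was 0.47 and was called (edgeR adjusted p = 0.0203; all settings tried spanned 0.0154 to 0.364). In WT males the change was 0.36 without replicate 1 on CDAHFD, and in Cyp2b-null males it was 0.01 without replicate 3 and 0.21 without replicate 2 on ND, with no call. With library size alone as the scale Mdm2 was called in all 4, at 0.60 in Cyp2b-null females, 0.64 in WT males and 0.49 in Cyp2b-null males.

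Phlda3 (chr1:135766085-135769134) encodes a small lipid-binding protein that keeps the survival kinase Akt from the membrane. In WT females, the 4 libraries on ND had 0.199, 0, 0.325 and 1.89 CPM of Phlda3 and the 4 on CDAHFD had 9.40, 11.9, 9.17 and 12.1 CPM. The Cyp2b-null females had 0.298, 0.198, 0.747 and 0.167 CPM of Phlda3 on ND, against 7.40, 14.4, 10.9 and 8.68 CPM on CDAHFD. The ND-fed Cyp2b-null females held only 1 to 2 counts per library. Over that group, 253 counts on CDAHFD stood against 5 on ND, a ratio of 35.7 after scaling for depth with a 95% interval of 15.1 to 111 for counting error only, and the ratios were 13.7 in WT females, 7.16 in WT males and 11.0 in Cyp2b-null males. In WT males, the 4 libraries on ND had 2.59, 0.825, 0.561 and 0 CPM of Phlda3 and the 4 on CDAHFD had 3.42, 5.64, 10.7 and 6.35 CPM. The Cyp2b-null males had 1.24, 0.457, 0.846 and 0.444 CPM of Phlda3 on ND, against 10.8, 11.4, 8.71 and 4.92 CPM on CDAHFD. Phlda3 was the only gene of the 8 for which all 16 CDAHFD libraries, both sexes and genotypes together, were above all 16 ND libraries, which held for 4.38% of all 14020 genes tested in both sexes together. Phlda3 passed the filter on low counts through its CDAHFD libraries, so this separation describes the gene and is no test. The log2 change was 3.79 ± 0.44 in WT females, 5.03 ± 0.52 in Cyp2b-null females, 2.73 ± 0.52 in WT males and 3.44 ± 0.52 in Cyp2b-null males (SE; edgeR adjusted p-values 2.66e-06, 5.43e-07, 0.000318 and 2.39e-05). In WT females replicate 4 on ND held 11 counts against 0 to 1 in the others, and without it the change was 5.67, while in WT males it was 3.70 without replicate 1 on ND, which held 14 counts against 0 to 5. With so few counts on ND, the fitted size of these changes depends on the prior count of the fit.

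Eda2r (chrX:97333837-97377234) encodes a receptor of the tumor necrosis factor family that binds ectodysplasin. Libraries of WT females had 0.597, 1.88, 0 and 0.859 CPM of Eda2r on ND and 2.62, 8.18, 2.99 and 6.84 CPM on CDAHFD. For Cyp2b-null females the Eda2r levels were 0.596, 1.79, 0 and 0.167 CPM on ND against 5.43, 6.33, 4.996 and 5.26 CPM on CDAHFD. All CDAHFD libraries of females were above the ND libraries of their genotype. Libraries of WT males had 0.739, 0.330, 0.140 and 0.653 CPM of Eda2r on ND and 6.46, 8.56, 5.99 and 3.18 CPM on CDAHFD. For Cyp2b-null males the Eda2r levels were 1.01, 1.14, 0.212 and 2.89 CPM on ND against 3.22, 5.59, 6.36 and 3.69 CPM on CDAHFD. The same held in males, with a narrow gap in Cyp2b-null males, where replicate 4 on ND reached 2.89 CPM. On the log2 scale Eda2r changed by 2.69 ± 0.58 in WT females, 2.95 ± 0.58 in Cyp2b-null females, 3.73 ± 0.54 in WT males and 1.91 ± 0.46 in Cyp2b-null males (SE; edgeR adjusted p-values 0.00165, 0.000642, 1.82e-05 and 0.00235). In Cyp2b-null females it changed by 4.33 without replicate 2 on ND, which held 9 counts against 0 to 2 in the others. As for Phlda3, the fitted size depends on the prior count.

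Bax (chr7:45461695-45466903) encodes the protein that opens pores in the outer mitochondrial membrane during apoptosis. In WT females, the 4 libraries on ND had 23.9, 19.9, 20.5 and 20.3 CPM of Bax and the 4 on CDAHFD had 29.7, 31.3, 21.9 and 38.3 CPM. The Cyp2b-null females had 16.4, 17.7, 16.1 and 15.4 CPM of Bax on ND, against 30.8, 35.6, 52.8 and 38.7 CPM on CDAHFD. In Cyp2b-null females the diets were separated, and in WT females replicate 3 on CDAHFD lay within the ND range. In WT males, the 4 libraries on ND had 13.1, 12.4, 20.3 and 14.2 CPM of Bax and the 4 on CDAHFD had 22.2, 15.7, 25.2 and 25.2 CPM. The Cyp2b-null males had 11.0, 20.3, 21.4 and 17.5 CPM of Bax on ND, against 21.4, 30.4, 26.7 and 22.6 CPM on CDAHFD. WT males overlapped and Cyp2b-null males were separated only narrowly. The log2 change was 0.53 ± 0.17 in WT females, 1.28 ± 0.18 in Cyp2b-null females, 0.57 ± 0.21 in WT males and 0.56 ± 0.21 in Cyp2b-null males (SE; edgeR adjusted p-values 0.0300, 1.57e-05, 0.0420 and 0.0378). Outside Cyp2b-null females the calls were lost when single libraries were left out. In WT females these were replicates 2 and 4 on CDAHFD and 2, 3 and 4 on ND, with changes of 0.39 to 0.52. In WT males they were replicates 1, 3 and 4 on CDAHFD and 1, 2 and 4 on ND (0.48 to 0.58), and in Cyp2b-null males 2 and 3 on CDAHFD and 1 and 4 on ND (0.36 to 0.56). The call in WT females was also lost without the filter on low counts, at 0.50.

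Trp53inp1 (chr4:11156441-11174379) encodes a stress-induced nuclear protein that promotes p53 activity and autophagy, and it was called in no comparison. Libraries of WT females had 93.8, 149, 100.02 and 81.2 CPM of Trp53inp1 on ND and 50.1, 88.4, 65.8 and 130.5 CPM on CDAHFD. For Cyp2b-null females the Trp53inp1 levels were 91.1, 79.5, 84.7 and 76.6 CPM on ND against 70.0, 72.7, 30.3 and 62.5 CPM on CDAHFD. In Cyp2b-null females all CDAHFD libraries were below all ND libraries, with replicate 3 lowest at 30.3 CPM, and in WT females the diets overlapped. The share of all genes separated in this direction is not given here. Libraries of WT males had 93.3, 84.9, 83.2 and 117 CPM of Trp53inp1 on ND and 122, 159, 96.1 and 80.3 CPM on CDAHFD. For Cyp2b-null males the Trp53inp1 levels were 106, 138, 89.5 and 82.1 CPM on ND against 70.3, 119, 86.7 and 82.0 CPM on CDAHFD. In males the diets overlapped in both genotypes. On the log2 scale Trp53inp1 changed by -0.32 ± 0.27 in WT females, -0.48 ± 0.27 in Cyp2b-null females, 0.28 ± 0.20 in WT males and -0.21 ± 0.20 in Cyp2b-null males (SE; edgeR adjusted p-values 0.431, 0.191, 0.307 and 0.451), with no call, and with library size alone as the scale the sign turned in WT females and Cyp2b-null males and the gene was called in WT males at 0.65. In Cyp2b-null females the change was -0.25 without replicate 3 on CDAHFD (edgeR adjusted p = 0.473) and -0.20 with library size alone, and without the filter on low counts it was called there at -0.53 (edgeR adjusted p = 0.0110; all settings tried spanned 0.0110 to 0.605). The change in WT females was -0.11 without replicate 2 on ND and -0.62 without replicate 4 on CDAHFD. That in WT males was 0.078 without replicate 2 on CDAHFD. That in Cyp2b-null males was -0.045 without replicate 2 on ND and -0.37 without replicate 2 on CDAHFD, all with no call.

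**Figure D2:**
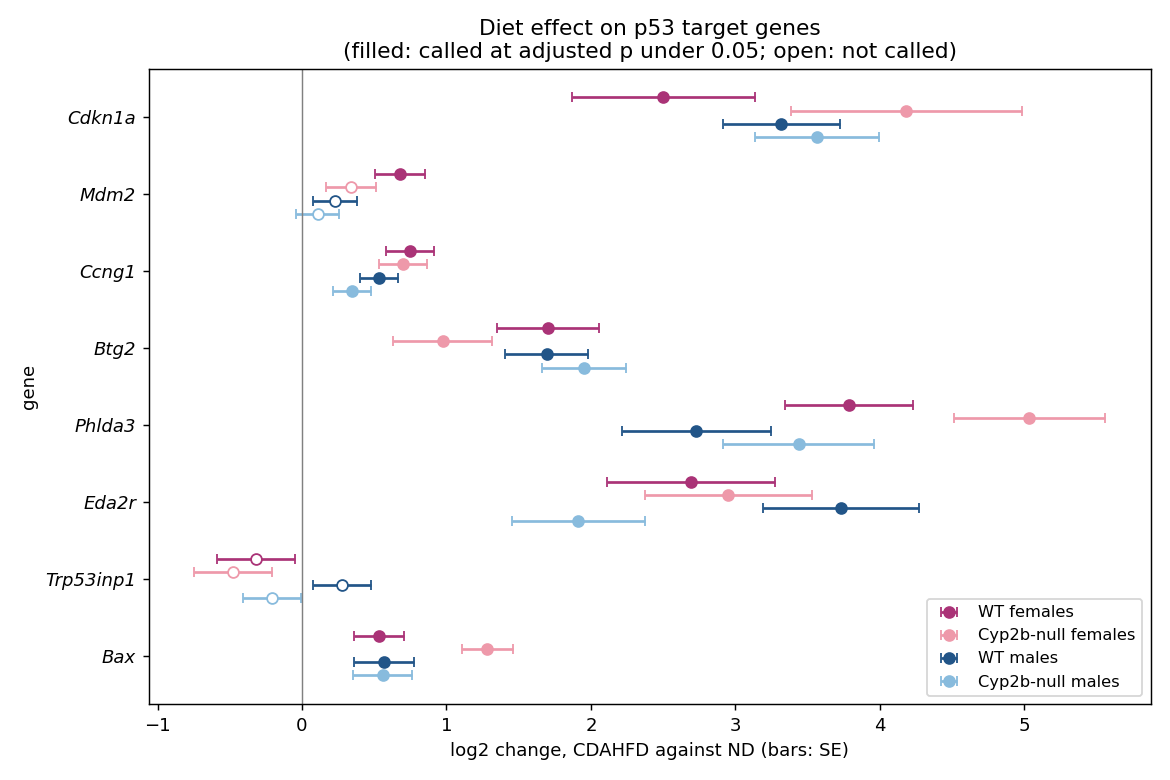
Log2 change on CDAHFD against ND with its SE for each gene (vertical axis) in 4 combinations of sex and genotype (colors); filled points were called at an adjusted p under 0.05. Phlda3 and Cdkn1a lie between 2.50 and 5.03, Trp53inp1 between -0.48 and 0.28.

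Ordered by mean level, the 4 CDAHFD groups ranked above the 4 ND groups for 7 of the genes, with Trp53inp1 the exception. The share of all genes ordered in this way is not given here. For Mdm2 the lowest CDAHFD mean was 27.3 CPM and the highest ND mean 26.9 CPM. For Bax these means were 22.1 and 21.1 CPM, and for both genes the libraries of these groups overlapped. Cdkn1a averaged 21.1 ± 12.5 CPM (SD, n = 4) in the group at the top, WT females on CDAHFD, and 0.725 ± 0.643 CPM (SD, n = 4) in the group at the bottom, Cyp2b-null females on ND. The top rank rests on replicate 4 at 39.8 CPM, as the other libraries of that group held 13.6 to 15.7 CPM, each below the means of the other groups on CDAHFD. These averaged 15.8 ± 1.65 CPM (SD, n = 4) for Cyp2b-null females, 18.1 ± 8.02 CPM (SD, n = 4) for WT males and 15.9 ± 4.76 CPM (SD, n = 4) for Cyp2b-null males. Neighbours in this order overlapped throughout for Cdkn1a. Gaps between neighbours without overlap were found for Phlda3 and Eda2r, between the lowest CDAHFD and the highest ND group, and for Trp53inp1 between its 2 lowest groups, Cyp2b-null females on ND and on CDAHFD.

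Levels of the 8 genes were compared with one another only per kilobase of exon (GENCODE vM21 exon unions). The libraries of both sexes and genotypes were pooled for each diet. On ND the median over 16 libraries was highest for Trp53inp1, Ccng1 and Bax, at 13.9, 11.9 and 11.2 CPM per kb, and lowest for Phlda3, Cdkn1a and Eda2r, at 0.289, 0.342 and 0.106. On CDAHFD the level per kb of Phlda3 was 5.96, close to that of Mdm2 at 5.86, and Cdkn1a stood at 4.34. Bax had the highest median level per kb on CDAHFD at 17.9, followed by Ccng1 at 16.7. This order holds for the pooled libraries only. By group means per kb, Bax lay above Ccng1 in females and below it in males, for both genotypes and on either diet. On CDAHFD, Trp53inp1 was also above Bax in WT males.

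Genotype left no call among the 8 genes. The study bought its WT mice from a supplier and used a Cyp2b-null line that it had developed earlier. Genotype and origin of the mice therefore cannot be told apart. With edgeR's quasi-likelihood test, 0 of 8 were called for genotype on ND in females (0.0756% of all genes called; 1 of 8 at an unadjusted p under 0.05 and 760 of all 13226 genes), on CDAHFD in females (0.0227%; 1 of 8 and 771 of all 13226 genes), on ND in males (0.0371%; 1 of 8 and 1112 of all 13460 genes) or on CDAHFD in males (0.0297%; 0 of 8 and 487 of all 13460 genes). DESeq2 called 0 of 8 in each of these as well, and gave Cdkn1a no adjusted p in females. The single genes past the unadjusted limit were Cdkn1a on ND in females (log2 change -2.11 ± 0.99, SE), Bax on CDAHFD in females (0.38 ± 0.17) and Eda2r on ND in males (1.4996 ± 0.66), with edgeR adjusted p-values of 0.853, 0.826 and 0.562. Without replicate 2 of the ND-fed WT females, at 16.5 CPM, the value of Cdkn1a was 0.028. That of Bax was 0.22 without replicate 3 of the CDAHFD-fed Cyp2b-null females and 0.25 without replicate 3 of the CDAHFD-fed WT females, and that of Eda2r was 0.88 without replicate 4 of the ND-fed Cyp2b-null males. In a fit without the filter on low counts Cdkn1a was called on ND in females (edgeR adjusted p = 0.000186), where the range over the other alternatives was 0.628 to 1. Bax on ND in females, at -0.38 ± 0.18 (edgeR adjusted p = 0.877), was lower in all 4 Cyp2b-null libraries, at 15.4 to 17.7 CPM, than in all 4 WT libraries, at 19.9 to 23.9 CPM. Such a separation in either direction held for 1 of the 8 genes there (3.46% of all genes), and for 0 of 8 on CDAHFD in females (2.81%), on ND in males (3.98%) and on CDAHFD in males (2.54%).

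Whether the diet change differed between the 2 genotypes was tested as an interaction. In females 0 of 8 genes were called (0% of all genes; 1 of 8 at an unadjusted p under 0.05 and 830 of all 13226 genes) and in males 0 of 8 (0.00743%; 1 of 8 and 817 of all 13460 genes), and DESeq2 called 0 of 8 in both. Bax in females had the larger rise in Cyp2b-null mice, by 0.75 ± 0.25 on the log2 scale (SE; edgeR adjusted p = 0.760). Eda2r in males had the smaller rise in Cyp2b-null mice, by -1.82 ± 0.76 (edgeR adjusted p = 0.727), and by -1.20 without replicate 4 of the ND-fed Cyp2b-null males. Mdm2 was called in WT and not in Cyp2b-null females, and its interaction of -0.34 ± 0.24 was not called (edgeR adjusted p = 0.787).

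Differences between the sexes in the diet effect were tested in 1 fit of both tables. In WT mice 0 of 8 genes were called (0.97% of all 14020 genes; 0 of 8 at an unadjusted p under 0.05 and 1439 of all 14020 genes), and in Cyp2b-null mice 0 of 8 (3.4%; 2 of 8 and 2690 of all 14020 genes), with 0 of 8 by DESeq2 in both. In Cyp2b-null mice the rise of Btg2 was larger in males by 0.999 ± 0.48 and the rise of Bax differed by -0.71 ± 0.28, smaller in males (log2, SE; edgeR adjusted p-values 0.252 and 0.156). The Btg2 difference was 0.40 without replicate 3 of the ND-fed Cyp2b-null females, and it was called without the filter on low counts (0.98, edgeR adjusted p = 0.0212; all settings tried spanned 0.0212 to 0.653). The Bax difference was called without replicate 1 of the ND-fed Cyp2b-null males (-0.90, edgeR adjusted p = 0.0483; all settings tried spanned 0.0483 to 0.467). Females and males were counted in separate tables, so sex and table cannot be told apart.

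Regulators of p53 were read next. Trp53 itself had log2 diet changes of 0.54 ± 0.15 in WT females, 0.37 ± 0.15 in Cyp2b-null females, 0.71 ± 0.17 in WT males and 0.63 ± 0.17 in Cyp2b-null males (SE), and rose in 3 of the 4 comparisons (edgeR adjusted p-values 0.0107, 0.0584, 0.00254 and 0.00517). Its partner Mdm4, which restrains p53 without degrading it, had changes of 0.30, -0.06, -0.04 and 0.16 and was not called. Of 15 listed regulators 11 were tested, of which 1 rose in each comparison while 1 fell in each but WT females (beside 13.9% to 20.3% of all genes that rose and 10.2% to 17.1% that fell), with medians of 0.16, -0.06, 0.03 and 0.10. The gene that fell in Cyp2b-null females and WT males was Usp7, a deubiquitinase acting on Mdm2 and p53, at -0.46 ± 0.16 and -0.39 ± 0.13 (edgeR adjusted p = 0.0295 and 0.0266). With library size alone these were -0.19 and 0.0035, not called, and the calls were also lost in fits of the compared groups alone and with some single libraries left out. In Cyp2b-null males the gene that fell was Rfwd2, also called Cop1, another ligase for p53, at -0.38 ± 0.12 (edgeR adjusted p = 0.0169), a call lost with library size alone, at -0.014, without the filter on low counts and without replicate 3 on CDAHFD. The checkpoint kinase gene Chek2 rose in Cyp2b-null females at 1.37 ± 0.43 (edgeR adjusted p = 0.0191), which was not called without replicate 2 of either diet or replicate 3 on ND.

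Other known p53 targets were split by role, and their counts stand beside the 13.9%, 16.9%, 18% and 20.3% of all genes that rose and the 10.2%, 13.9%, 15% and 17.1% that fell in WT females, Cyp2b-null females, WT males and Cyp2b-null males. Of 11 apoptosis targets, 5, 4, 4 and 4 rose in this order, and Ei24 fell in all but Cyp2b-null females, with medians of 0.53, 0.25, 0.31 and 0.36. The death receptor gene Tnfrsf10b, with 0 to 5 counts in the ND libraries and 2 to 34 in the CDAHFD libraries, had changes of 3.43, 3.14, 3.12 and 3.09, Apaf1, the core of the apoptosome, 1.24, 1.11, 1.76 and 2.07, and the inflammatory caspase gene Casp1 0.90, 0.93, 1.81 and 2.38, and all of these were called. Of 11 targets in metabolism and stress, 4, 5, 5 and 5 rose and 2, 1, 3 and 3 fell, with medians of 0.18, 0.35, 0.43 and 0.46. Dram1, which promotes autophagy and had 1 to 12 counts in the ND libraries, rose by 2.25, 1.86, 3.42 and 3.42, and Gdf15, a stress-induced circulating factor, by 0.96, 1.15, 0.96 and 2.22. Tnfrsf10b and Dram1, like Cdkn1a, passed the filter through the CDAHFD libraries, so the fitted size of their changes depends on the prior count. Gls2, a mitochondrial glutaminase, had changes of -1.25, -0.82, -0.87 and -0.77 and fell in all 4. Dcxr fell in all but Cyp2b-null females and Rps27l in both male genotypes, and these 2 and Ei24 were singled out after their values were seen and not followed over the alternatives. Of 6 DNA repair targets Ddb2 rose in Cyp2b-null females at 0.57 ± 0.18 and Rrm2b in Cyp2b-null males at 1.08 ± 0.35, and Ercc5 fell in Cyp2b-null females at -0.53 ± 0.15 (SE; edgeR adjusted p = 0.0195, 0.0189 and 0.0112), with medians of 0.10, 0.06, 0.10 and 0.38. The calls of Ddb2 and Rrm2b were lost with some single libraries left out, and that of Ercc5 with library size alone. Among cell cycle targets, of which 4 were tested in females and 5 in males, 3, 2, 2 and 3 rose, with medians of 1.28, 0.69, 0.73 and 1.12, and the kinase gene Plk2 was called in all 4 at 1.23, 1.07, 0.66 and 0.68.

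Genes that p53 and p21 are known to repress through the DREAM complex, which drive cell division, mostly rose on CDAHFD, as Cdkn1a did. Of the 19 listed, 17 were tested in females and 18 in males, and 12, 11, 15 and 16 rose by edgeR's test, with median log2 changes of 2.25, 1.57, 2.82 and 2.67, beside 13.9%, 16.9%, 18% and 20.3% of all genes that rose. Here too a gene with few counts on ND entered the tests only through its CDAHFD libraries. The mitotic cyclin gene Ccnb2, at 0 to 5 counts per ND library, had changes of 3.87, 4.00, 3.57 and 4.03, and Cdc20, an activator of the ligase that ends mitosis, at 1 to 8 counts per ND library, 3.98, 3.91, 3.97 and 3.57, with a call in each comparison. Of 13 relatives and partners tested, 3, 2, 6 and 6 rose, with medians of 0.21, 0.12, 0.51 and 0.23, which can be read only beside those shares of all genes. Bak1, which forms pores as Bax does, rose in all 4 at 0.91, 1.14, 0.99 and 1.04.

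Levels of markers of other liver cells were compared between the diets as well. The summed level of 9 macrophage markers, of which Lyz2 made up the largest share and Trem2 had 0 counts in all 32 libraries, had a median of 343 CPM (range 135 to 587) in the 16 ND libraries and 1349 CPM (range 851 to 2209) in the 16 CDAHFD libraries. For 8 stellate cell and fibroblast markers, with Dcn the largest, it was 186 CPM (range 99.3 to 282) in the 16 ND libraries and 632 CPM (range 456 to 877) in the 16 CDAHFD libraries. The sums are in CPM, not scaled for the lengths of the genes in them. Whether genes with 0 counts in all 32 libraries, Trem2 here and Ly6g below, were not transcribed or not counted cannot be told from these data. Both sums were higher in every CDAHFD library than in any ND library, as were those of the next 2 lists. The macrophage sum on ND differed between females and males. Its group median went from 478 CPM on ND to 1195 on CDAHFD in WT females and from 519 to 1413 in Cyp2b-null females. In males it went from 198 to 1460 CPM in WT and from 207 to 1519 CPM in Cyp2b-null mice. The 5 cholangiocyte markers, with Spp1 the largest, stood at 35.3 CPM (range 20.8 to 59.4) in the 16 ND libraries and 166 CPM (range 99.3 to 318) in the 16 CDAHFD libraries, and the 5 neutrophil markers, with S100a9 the largest and Ly6g at 0 counts throughout, at 1.27 CPM (range 0.185 to 1.98) in the 16 ND libraries and 8.21 CPM (range 2.85 to 15.5) in the 16 CDAHFD libraries. The 8 lymphocyte markers, with Trbc2 the largest, had a median of 5.78 CPM (range 2.83 to 11.2) in the 16 ND libraries and 11.0 CPM (range 4.18 to 19.3) in the 16 CDAHFD libraries, and the 5 endothelial markers, with Clec4g the largest, 207 CPM (range 140.2 to 281) in the 16 ND libraries and 162 CPM (range 117 to 239.7) in the 16 CDAHFD libraries. The endothelial sum differed by group: its group median went from 217 CPM on ND to 158 on CDAHFD in WT females, 274 to 165 in Cyp2b-null females, 175 to 154 in WT males and 150.2 to 176 in Cyp2b-null males. Of these 5 genes 2, 3, 1 and 0 fell and 0, 0, 0 and 2 rose by edgeR's test. The 7 hepatocyte markers, with Alb the largest, had 134050 CPM (range 111736 to 191292) in the 16 ND libraries and 88335 CPM (range 58239.7 to 120477) in the 16 CDAHFD libraries. The diets overlapped only over all groups together. Within each combination of sex and genotype, every CDAHFD library had a lower hepatocyte sum than every ND library. Of 8 macrophage markers tested, 6 rose and Timd4, a marker of resident macrophages, fell in each of the 4 comparisons, and of the hepatocyte markers 5, 5, 6 and 6 fell. Of the 8 stellate cell and fibroblast markers 6, 7, 6 and 7 rose, and of the 5 cholangiocyte markers 2, 3, 2 and 2. The 2 neutrophil markers tested rose in each comparison. Only 3 lymphocyte markers were tested in females and 1 in males, and the only call was 1 that rose in Cyp2b-null females. Over all genes 13.9%, 16.9%, 18% and 20.3% rose and 10.2%, 13.9%, 15% and 17.1% fell. Their part in the changes of the p53 target genes was not tested.

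Over the 32 libraries (n = 32) the log2 CPM of the 28 pairs of target genes had correlations from -0.45 to 0.89 (median 0.63). Once group means were removed, they ranged from -0.33 to 0.61 (median 0.31). The highest within groups were Cdkn1a with Eda2r (0.61), and Mdm2 with Trp53inp1 (0.51). The libraries of a group share diet, genotype and sex, and all share the scaling for depth, so these Pearson correlations are a description. The 5 genes outside the list most like Cdkn1a over the 32 libraries, among 13859 compared, were Gipc2, Clec4d, Haus8, Plaur and Mmp13 (r = 0.90 for each), and with group means removed their r was 0.53, 0.51, 0.51, 0.45, 0.45 in this order. Those most like the mean of the 8 genes were Gipc2 (0.94), Spink1, Haus8, Kctd17 and Gm35546 (0.92 each), with 0.70, 0.57, 0.40, 0.62, 0.50 once group means were removed. Gipc2 had a mean of 0.0976 CPM on ND and 7.64 CPM on CDAHFD, and Haus8, a subunit of a complex that branches spindle microtubules, 2.40 and 26.9 CPM.

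The promoters of the 8 genes were searched for the p53 decamer, the 10-base consensus to which a pair of p53 molecules binds, on both strands. RefSeq windows (GRCm38.p6) from 250 bases before to 50 bases after the start were found for 7 of the 8 genes, without Trp53inp1, in 8 windows. A decamer was in a window of 4 of the 7, Cdkn1a, Mdm2, Ccng1 and Bax, and in 8.36% of all 32851 windows. The former counts genes and the latter single windows. Btg2, Phlda3 and Eda2r had none in theirs, which says only that these letters are not in those windows. Cdkn1a had 2 decamers in the window of its upstream start, 73 to 64 and 51 to 42 bases before it, and none in the window of its other start. A pair of them at most 13 bases apart was in 0.0731% of windows. Only exact matches of the consensus were searched for, so near matches beside them are not marked in the stretches below. The site of Mdm2 lay 186 to 177, that of Ccng1 185 to 176 and that of Bax 201 to 192 bases before the start. The stretches below lie on the plus strand for Cdkn1a (chr17:29090886-29090935 and chr17:29090908-29090957, which overlap) and on the minus strand for Mdm2 (chr10:117710915-117710964), Ccng1 (chr11:40755442-40755491) and Bax (chr7:45467070-45467119), read 5′ to 3′ with the decamer in capitals.
Cdkn1a, upstream site: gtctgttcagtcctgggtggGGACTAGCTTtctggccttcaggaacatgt
Cdkn1a, downstream site: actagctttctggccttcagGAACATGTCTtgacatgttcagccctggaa
Mdm2: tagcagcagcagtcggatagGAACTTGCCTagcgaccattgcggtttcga
Ccng1: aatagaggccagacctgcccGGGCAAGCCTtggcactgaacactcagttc
Bax: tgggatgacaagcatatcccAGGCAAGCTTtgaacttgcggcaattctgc
No binding was measured here, and each match is a description.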

How the data were processed

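RNA of 32 mouse livers, 4 per group, was sequenced. Read counts per gene were made by the authors, who used FastQC, Trimmomatic, GSNAP on GRCm38.p6 and Subread featureCounts and deposited raw counts in 2 tables, 1 per sex. Versions and the strand setting are not given in the sources used here, so reads of overlapping genes on opposite strands cannot be told apart. The libraries held 2906411 to 10166959 counts, and no 2 were identical.

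Each table was fitted with edgeR 4.0.16 in R 4.3.3, with TMM factors, filterByExpr (minimum count 10, minimum total 15), a mean per group and the quasi-likelihood test. Benjamini-Hochberg adjustment covered all genes tested, and genes were called at an adjusted p under 0.05. The sex difference was tested in 1 fit of all 32 libraries. The SE is the log2 change divided by the root of the F statistic and is approximate. CPM used TMM factors over all libraries. Intervals and low counts cover counting error only, and reads without molecular identifiers are not independent molecules. The p-values set each change against the spread between libraries within groups, with a dispersion estimate shared by all groups of a fit.

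Alternatives were DESeq2 1.42.0, RLE factors, library size only, no filter on low counts, a filter of 1 CPM in 4 libraries, an adjusted p limit of 0.1, fits of the compared groups alone, the replicate number as a block, leaving out each library in turn, and leaving out 2 CDAHFD libraries that the heat maps of the study do not show (replicate 3 of the Cyp2b-null females and replicate 4 of the Cyp2b-null males). A fit without the ND-fed female libraries highest in Cdkn1a and in Btg2 was added after their values were seen, as were 3 gene lists (neuronal and glial, immediate early, glucocorticoid induced). Members and lists were chosen with earlier results of these data known. Genes were named from each list by the largest mean diet change among those called at least once, up to 4, and from these some are given. Results of some listed genes are not reported here. Rfwd2 is listed in the tables under that older symbol.

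Code was tested on simulated counts with known changes. A limit on the share of changed genes recovered was lowered for the sex difference after a first run did not meet it, and a limit on wrong calls was kept for edgeR only, because DESeq2 made more of them. Fewer changed genes were recovered for the sex difference than for comparisons of 2 groups.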

Additional observations from a re-analysis of the deposited data

Results flagged for a closer look

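Levels of the 8 genes were searched for single libraries far from the other 3 of their group, by Dixon's ratio of gap to range at its critical value for 4 libraries. Of 64 sets of 4 libraries, 3 passed, where chance gives about 1 in 20. Replicate 2 of the ND-fed WT females had 16.5 CPM of Cdkn1a, and the other 3 libraries had 0 to 1.37 CPM. Replicate 4 of the CDAHFD-fed WT females had 39.8 CPM of Cdkn1a, above 13.6 to 15.7 CPM in its group. Replicate 1 of the ND-fed WT females had 23.9 CPM of Bax, and the others had 19.9 to 20.5 CPM. Replicate 3 of the CDAHFD-fed Cyp2b-null females, which the heat maps of the study do not show, was lowest in its group for Mdm2, Ccng1, Btg2, Eda2r and Trp53inp1 and highest for Bax, and passed for none. The ND-fed Cyp2b-null female library with 31.4 CPM of Btg2 did not pass this value.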

How the results depend on the processing

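The number of the 8 genes called for diet ranged from 6 to 7 in WT females, 5 to 7 in Cyp2b-null females, 5 to 8 in WT males and 4 to 7 in Cyp2b-null males over all alternatives. The 8 in WT males came with library size only, where 5111 of 13460 genes were called higher on CDAHFD, against 2426 with TMM. For genotype, interaction and sex difference it was 0 throughout, apart from 1 without the filter on low counts for genotype on ND in females (Cdkn1a) and for the sex difference in Cyp2b-null mice (Btg2), where leaving out single libraries gave 0 to 1 (Bax). The fit without that filter also called more genes in all, 122 against 10 for that genotype effect and 923 against 477 for that sex difference. DESeq2 called 72 against 5 genes for genotype on ND in males. Of 4297 alternative values for 245 gene results, 4035 kept sign and call, 159 lost a call, 64 gained 1 and 39 turned sign, of which 0 were called. The cause was not tested.

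With library size only, the median log2 diet change of all genes was 0.32, 0.28, 0.37 and 0.36 in WT females, Cyp2b-null females, WT males and Cyp2b-null males, and the median of the 8 genes lay above it by 1.23, 1.11, 1.15 and 1.25. Calls were then higher on CDAHFD for 88.8%, 85.8%, 89.8% and 86.3%, against 57.6%, 55.0%, 54.6% and 54.3% with TMM. Signs turned with that scale for Trp53inp1 (0.019), Rfwd2 (0.19) and Rrm2b (0.19) in WT females and Mdm4 (0.21) in Cyp2b-null females. In WT males they turned for Cdh5 (0.28), Clec4g (0.29), Ercc5 (0.24), Mdm4 (0.36), Pecam1 (0.33), Rfwd2 (0.13) and Usp7 (0.0035), and in Cyp2b-null males for Kdr (0.065), Trp53inp1 (0.17) and Usp7 (0.057).

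Without the 2 libraries absent from the heat maps, Mdm4 was 0.12 and Plk3 -0.0034 in Cyp2b-null females, and Cdh5 -0.030 and Clec4g -0.016 in Cyp2b-null males. Without the pair of ND-fed female libraries chosen after seeing the data, Cdkn1a was 0.17 for genotype on ND, and Cdkn1c -0.070 and Rrm2b 0.083 for diet in WT females. With single libraries left out, Cdkn1a for genotype on ND in females ranged from -2.56 to 0.028. The diet change in females ranged from -0.080 to 0.34 for Cdkn1c and -0.36 to 0.074 for Rrm2b in WT, and from -0.14 to 0.12 for Mdm4 and -0.0034 to 0.60 for Plk3 in Cyp2b-null mice. In WT males it ranged from -0.27 to 0.055 for Cdh5, -0.32 to 0.24 for Clec4g, -0.15 to 0.047 for Mdm4 and -0.17 to 0.053 for Pecam1, and in Cyp2b-null males from -0.030 to 0.28 for Cdh5 and -0.016 to 0.23 for Clec4g.

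With the replicate block, 7, 6, 6 and 5 of the 8 genes were called for diet, the last without Ccng1 in Cyp2b-null males (edgeR adjusted p = 0.0608), and no other call among the 8 genes changed. Gdf15 lost its call in WT females, and the calls gained included those of Clec4g in Cyp2b-null females and Ercc5 in Cyp2b-null males. Libraries of the same number showed little shared deviation, with a median correlation of -0.00286 in females and 0.0213 in males over 24 pairs each. Of these pairs 2 and 3 were above 0.1, and the highest were 0.14 and 0.28. The labels do not say whether the numbers pair the samples, and these correlations cannot exclude a weak pairing. Depth limits Phlda3, Eda2r and Cdkn1a on ND, where single libraries had 0 counts.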

Other observations

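Among ND-fed WT females, replicate 2 was highest in its group not only for Cdkn1a but also for Mdm2, Btg2, Eda2r and Trp53inp1, at 22.9, 12.8, 1.88 and 149 CPM. The same library was lowest in its group for Bax at 19.9 CPM and for Phlda3 at 0 counts, and had 35.6 CPM of Ccng1, within the 27.3 to 44.3 CPM of the others. After these values were seen, short textbook lists were summed in every library. For 4 genes induced by glucocorticoids (Fkbp5, Tsc22d3, Per1 and Sgk1), this library had the highest sum of the 32 at 365 CPM, beside 129, 263 and 218 CPM in the rest of its group. For 8 immediate early genes, among them Fos and Egr1, the highest sum was 347 CPM in replicate 3 of the ND-fed Cyp2b-null females, the library with the highest Btg2 on ND, beside 64.0, 175 and 208 CPM in its group. For 9 neuronal and glial genes the highest sums were 52.3 CPM in replicate 3 of the ND-fed WT females and 43.7 CPM in replicate 3 of the ND-fed Cyp2b-null females, with 13.3 to 42.5 CPM in the other libraries. The part of these differences in the levels of the p53 target genes was not tested.

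With diet, 13.9%, 16.9%, 18% and 20.3% of all genes rose in WT females, Cyp2b-null females, WT males and Cyp2b-null males, and 10.2%, 13.9%, 15% and 17.1% fell. Beside these, edgeR's quasi-likelihood test called 1 and 2 of the 4 glucocorticoid-induced genes lower in WT and Cyp2b-null females, and 2 and 2 higher in WT and Cyp2b-null males. Of the 7 immediate early genes tested, 2, 1, 3 and 4 rose on CDAHFD in this order, and 1 fell in Cyp2b-null females. Of the neuronal and glial genes, 2 were tested in females and 5 in males. Of these, 2 rose in WT males, and 2 rose and 2 fell in Cyp2b-null males.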
